A study of Mus musculus with 6 samples.

Results

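The transition from early to late depolarization was examined in cultured mouse cortical neurons by comparing the 2 RNA BS-seq libraries taken after 2 h of KCl with the 2 taken after 6 h, which are 4 of the 6 libraries of the series. RNA BS-seq is sequencing of bisulfite-treated RNA, in which an unmodified cytosine is read as thymine and a 5-methylcytosine (m5C) stays cytosine. All cultures were wild-type (WT) C57BL/6 cortical cells from E16.5 embryos, male and female pooled, that had grown for 7 days and had been silenced overnight with 1 μM TTX and 100 μM DL-AP5. The groups then differed in the duration of 55 mM KCl (0 h, 2 h or 6 h), and poly(A) RNA was measured. The cultures hold cortical cells of more than 1 kind, so that a change in bulk coverage cannot tell fewer cells of a type from less RNA per cell.

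Members were positions whose reference base was C, with the state called methylated, listed in all 4 libraries and read at least 20 times in each. A total of 345621 positions met this, and 336663 of them carried 1 gene symbol. They fell in 6246 genes, of which 3946 had 5 or more positions (median 34.5 per gene) and were compared. A gene's coverage change was the median over its positions of the log2 ratio of library-scaled coverage, 6 h over 2 h, and it stood in for transcript abundance. The 190 genes with exactly 5 positions had a median change of 0.01 and the 242 with 4 positions, which were left out, of -0.01. m5C was followed at 2280 positions that had at least 6 unconverted reads and a level (unconverted share of the reads) of at least 10% in both replicates of either time.

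Depolarization opens voltage-gated calcium channels, and calcium signalling through CREB and other factors induces immediate early genes without new protein synthesis. Many immediate early genes encode transcription factors (Fos, Npas4 and the Nr4a nuclear receptors), their transcripts are short-lived, and a later wave of genes for secreted, synaptic and structural proteins follows. m5C in mRNA is deposited mainly by NSUN2 and NSUN6, and it can be bound by the reader proteins ALYREF and YBX1.

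The cytosines that the m5C results turn on are shown here on the transcript strand with 10 bases on either side (build mm10, as listed in the files, and equal to the GRCm38 reference), with the measured cytosine in capitals. The first 6 had the largest decreases in level from 2 to 6 h among isolated nuclear cytosines in genes, a class defined below. Only cytosines called by Fisher's exact test, with no overlap of libraries between times, were ranked. They are shown so that their surroundings can be compared.
Gprin2, chr14:34188421-34188441, minus strand: gcctatcttaCggaagaaagt
Rptor, chr11:119899069-119899089, plus strand: ctcagttctgCagagagcttc
Trim2, chr3:84190989-84191009, minus strand: tatccacaacCtggggaccat
Zbtb4, chr11:69779607-69779627, plus strand: tctgtcttctCcagggaatgg
Casc3, chr11:98832468-98832488, plus strand: ctggacaaccCaggcgtcaga
Nelfb, chr2:25203173-25203193, minus strand: catcaccaagCagagaaacaa
The next 6 had the largest increases by the same rule.
Mad2l2, chr4:148140295-148140315, plus strand: ggagaaaacaCagcgatcata
Ipo11, chr13:106936771-106936791, minus strand: gcgggccgggCggttccggac
C1qtnf12, chr4:155964758-155964778, plus strand: cctcttttagCgaggcctctc
Adam12, chr7:133884818-133884838, minus strand: cagccacttgCagctctttcc
5730409E04Rik, chr4:126613188-126613208, plus strand: gtgcacaggaCaatttgtgga
1500035N22Rik, chr5:24997492-24997512, plus strand: tctgcagcacCaggagaggac
The following 3 lie in genes that the study examined singly.
Sik3, chr9:46222260-46222280, plus strand: aggaaataaaCaggaaatcag
Zfp553, chr7:127236493-127236513, plus strand: ggcccgcaggCtggggagccg
Rhbdd2, chr5:135643255-135643275, plus strand: agggacctccCagggggtaca
Guanines at the 3 bases from the second to the fourth after the cytosine, a G-rich pattern known from NSUN2 sites, were present in Trim2, Zfp553 and Rhbdd2 and in none of the others shown.

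The 4 libraries listed between 1597335 and 2374392 cytosines, and the shared positions made up 14.6% to 21.6% of each list, with a median coverage of 2075 to 2512 reads. A cytosine is listed only where at least 1 read stayed unconverted, so the shared positions are deep ones. The 6 h replicate 1 library had the longest list and the highest unconverted share at deep positions with levels under 1% (0.115%, against 0.0840% to 0.0869% in the other 3 libraries). Of the shared positions, 70.1% lay in coding sequence and 25.8% in 3′ UTRs of GENCODE M21. Neuron markers were read deeply in all 4 libraries (Tubb3 had 428 shared positions, Map2 1596, Stmn2 422 and Snap25 245), and none of the 14 microglial, endothelial and mural markers reached 5 shared positions. Of those 14, Csf1r, P2ry12, Tmem119, C1qa, Cldn5, Flt1 and Rgs5 were not listed at all in these 4 libraries. Across the 6 libraries of the series 7 of the 14 were listed. Of these, 1 had 5 or more positions listed in at least 1 library of each time.

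From 2 to 6 h, coverage rose in 1062 genes (26.9% of the 3946 tested) and fell in 1044 (26.5%) at an adjusted p of at most 0.05 in limma with Benjamini-Hochberg adjustment. Changes of more than 2-fold were fewer, with 119 genes higher (3.02%) and 77 lower (1.95%), and the libraries of the 2 times did not overlap in any of these genes, as in 79.6% of all genes tested. The median absolute change was 0.29 on the log2 scale, against a median absolute difference between replicates of 0.10 at 2 h and 0.07 at 6 h. Within a gene the positions moved together, with a median interquartile range of 0.12. The number of calls depended on the libraries kept. It fell when either 6 h library was left out and rose when either 2 h library was left out. With 1 library left at a time, the spread between replicates is taken from the other time alone.

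**Figure D1:**
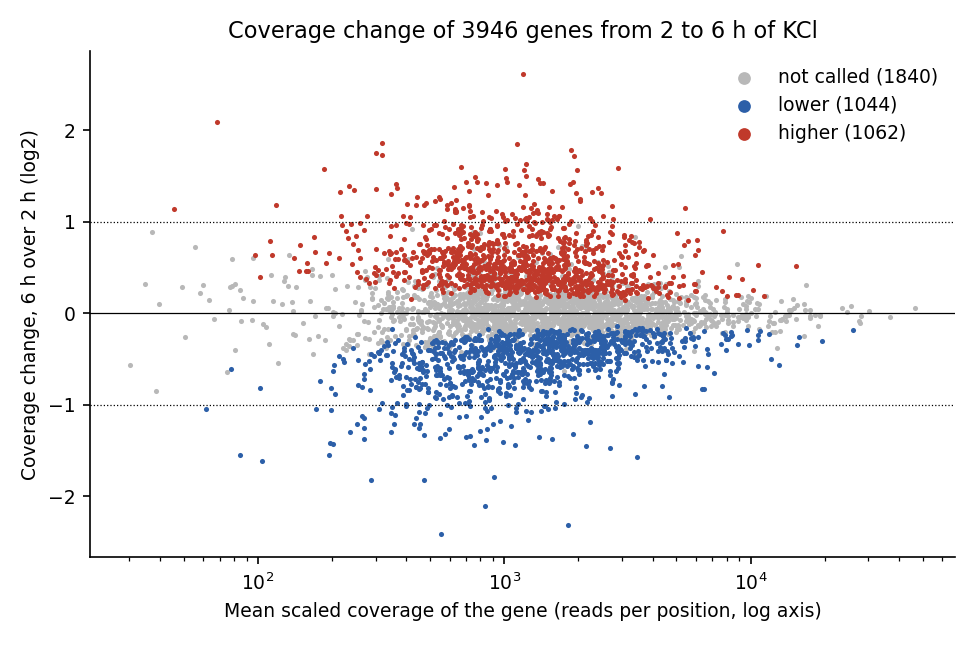
Coverage change from 2 to 6 h (log2, vertical axis) against mean scaled coverage (reads per position, log axis) for 3946 genes, 1 point a gene. Red points are the 1062 genes called higher, blue points the 1044 called lower and grey points those not called, and dotted lines mark a 2-fold change.

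The 10 largest decreases held 2 genes of the immediate early class, Nr4a2 and Junb. Cwc25, a spliceosome-associated protein, had the largest decrease among genes with 10 or more positions, with 2941 and 3108 reads per position after 2 h, then 631 and 574 after 6 h (log2 change -2.31 ± 0.08 SE, adjusted p = 0.000715). Nr4a2, an orphan nuclear receptor of the immediate early class, had 1328 and 1376 reads per position after 2 h, then 316 and 311 after 6 h (log2 change -2.11 ± 0.07 SE, adjusted p = 0.000715). In both genes the replicates of a time lay close together compared with the difference between times.
Sla, a Src-like adaptor, fell from 452 and 450.0 to 135 and 114 reads per position. Ndrg1, a stress-responsive gene, fell from 707 and 769 to 213 and 205. The other 6 of the 10 largest decreases were Junb, Vps37b (an ESCRT-I subunit, -1.47), Ssu72 (a phosphatase of the RNA polymerase II tail, -1.44), Dars (aspartyl-tRNA synthetase, -1.37), Ap3b2 (a neuronal subunit of the AP-3 sorting complex, -1.36) and Smarca2 (an ATPase of the BAF chromatin remodelling complex, -1.32), all as log2 changes of coverage.

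Of the 10 largest increases 9 are given here. Arpp21, a cAMP-regulated phosphoprotein, had the largest, with 332 and 348 reads per position after 2 h, then 1937 and 2141 after 6 h (log2 change 2.62 ± 0.08 SE, adjusted p = 0.000715). Miat, a long noncoding RNA, had 148 and 127 reads per position after 2 h, then 527 and 475 after 6 h. Brinp1, a neuronal gene of cell cycle regulation, had 528 and 473 reads per position after 2 h, then 1664 and 1836 after 6 h. In all 3 genes the 2 times were separated by more than 3-fold with no overlap.
Plppr4, a membrane protein of glutamatergic synapses, had a log2 change of 1.78, Pgap1, which trims the lipid anchor of GPI-linked proteins, of 1.75, and Arfgap2, an ARF GTPase-activating protein, of 1.63. Prkca, the α isoform of protein kinase C, changed by 1.59, and Ppp1r37, a regulatory subunit of protein phosphatase 1, by 1.59. In Zfp68, a zinc finger gene with a change of 1.73 (adjusted p = 0.00856, limma), the 2 h replicates lay apart, at 206 and 105 reads per position.

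**Figure D2:**
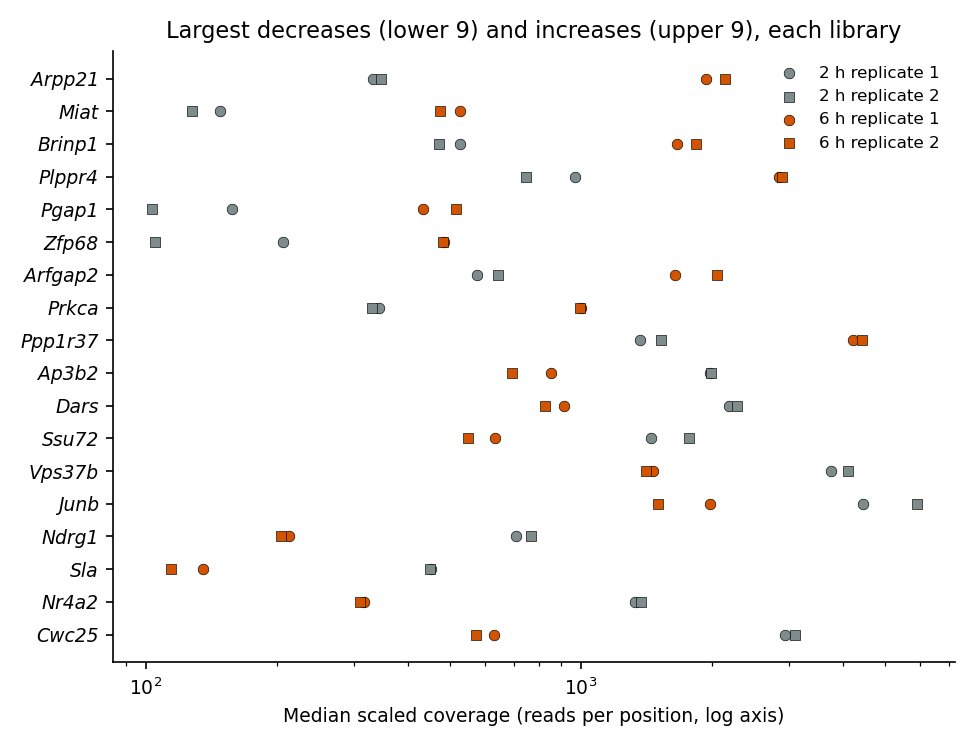
Median scaled coverage (reads per position, log axis) in each library of the 9 genes with the largest increases (upper rows) and the 9 with the largest decreases (lower rows). Grey symbols are 2 h and orange 6 h, circles replicate 1 and squares replicate 2; in every row both 6 h symbols lie on the same side of both 2 h symbols.

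Immediate early transcription factors fell for the most part. Of 30 listed genes 11 were tested, and 8 were called lower (72.7%, against 26.5% of all genes tested), 2 higher and 1 neither, with a median change of -0.46 against 0.00 over all genes tested. Junb, a component of AP-1, had 4441 and 5903 reads per position after 2 h, then 1978 and 1499 after 6 h (log2 change -1.57 ± 0.19 SE, adjusted p = 0.00236). Nr4a1 had 3074 and 3160 reads per position after 2 h, then 1360 and 1308 after 6 h (log2 change -1.19 ± 0.06 SE, adjusted p = 0.000889). Npas4, a neuron-restricted activity-dependent factor, had 1715 and 1708 reads per position after 2 h, then 849 and 698 after 6 h (log2 change -1.17 ± 0.11 SE, adjusted p = 0.00146).
Fos was read far more deeply, with 8322 and 8099 reads per position after 2 h, then 4964 and 4409 after 6 h, and fell by 0.83 on the log2 scale (adjusted p = 0.00146, limma). Nfil3, Fosl2 and Nr4a3 fell by 0.46, 0.40 and 0.39, so that the 3 Nr4a receptors spanned the range from -2.11 to -0.39. The 2 members called higher were Crem (0.69), whose products include the repressor ICER, and Klf6 (0.44).

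Several early genes had too few shared positions for the test. Over positions listed in at least 1 library of each time, which gives a value with no test and was added after seeing the data, Fosb had a median log2 change of -2.89 over 71 positions, Egr4 of -2.26 over 9, Egr1 of -1.26 over 11 and Jun of -1.22 over 96. Among the 11 immediate early genes that only this measure reached, 6 were below 0 and 5 above, and those above lay between 0.19 (Ier5) and 0.37 (Mafk). Over the 3946 genes tested, whose shared positions are also in the wider set, the 2 measures had a Pearson correlation of 0.985. That value does not cover the genes that only the wider set reached.

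The later class of synaptic and secreted effectors rose for the most part. Of 49 listed genes 18 were tested, of which 11 were called higher (61.1%, against 26.9% of all genes tested), 2 lower and 5 neither, with a median change of 0.51. Nefm, the medium neurofilament subunit, had 1223 and 1217 reads per position after 2 h, then 2774 and 2918 after 6 h (log2 change 1.23 ± 0.06 SE, adjusted p = 0.000889). Bdnf, a secreted neurotrophin, had 942 and 779.9 reads per position after 2 h, then 1905 and 1813 after 6 h (log2 change 1.13 ± 0.11 SE, adjusted p = 0.00147).
Its receptor gene Ntrk2 changed by 0.60 and the granin genes Vgf and Scg2, whose proteins are packed in dense-core vesicles, by 0.84 and 0.72. Peg10, a retrotransposon-derived gene, changed by 0.99, and Rgs2 and Rgs4, regulators of G protein signalling, by 0.78 and 0.40. The 2 members called lower were Gadd45g (-1.45), a stress sensor that many stimuli induce early, and Plk2 (-0.40), a kinase of synaptic scaling. Of the 17 effector genes reached by the untested measure alone, 14 were above 0, with Nptx2, a secreted pentraxin that clusters AMPA receptors, at 2.26 over 26 positions.

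Homer1, a postsynaptic scaffold gene with an activity-induced short isoform, was not called (1678 and 1444 reads per position after 2 h, then 1494 and 1334 after 6 h, log2 change -0.20 ± 0.10 SE, adjusted p = 0.288). Its positions did not move as one, with quartiles of -0.42 and 0.03. Leaving out 2 h replicate 2 gave a change of -0.25 that passed the threshold.

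**Figure D3:**
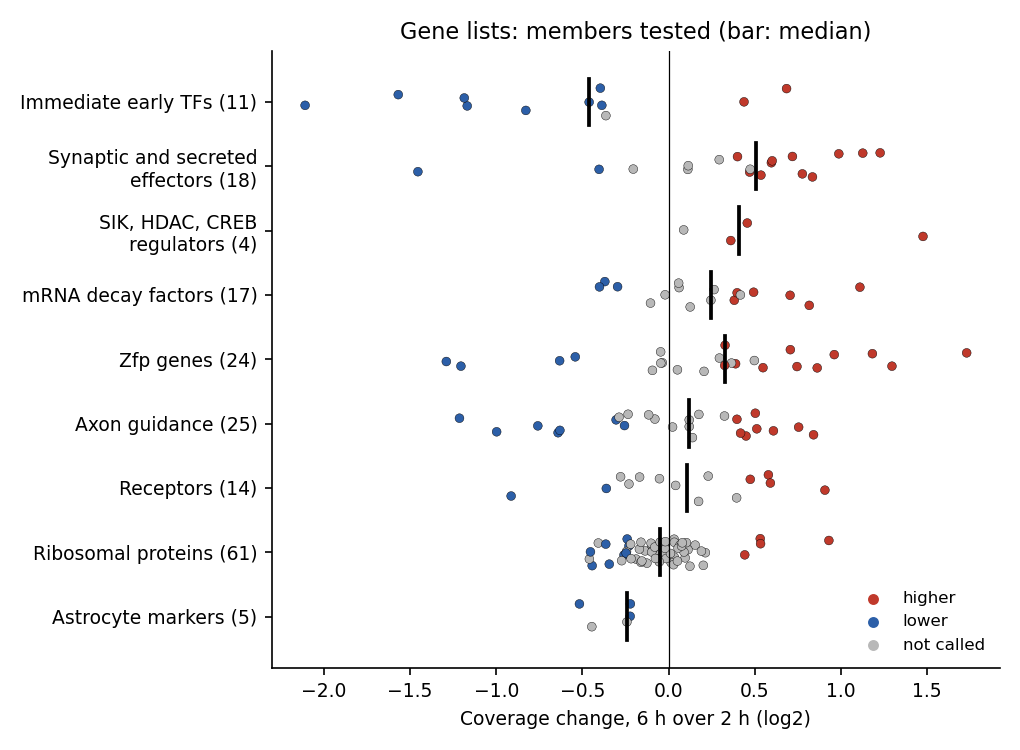
Coverage change from 2 to 6 h (log2) of the tested members of 9 gene lists, 1 point a gene, with the number tested in brackets and the median as a bar. Members called higher are red, called lower blue and not called grey; most immediate early transcription factors lie left of 0 and most effectors right of it.

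Feedback and signalling genes were mostly out of reach of the test. Of 17 SIK kinases, class IIa histone deacetylases and CREB regulators 4 were tested, and 3 were called higher (26.9% of all genes tested were). Sik3, a salt-inducible kinase that restrains CREB coactivators, had 542 and 530.5 reads per position after 2 h, then 1505 and 1495 after 6 h (log2 change 1.48 ± 0.07 SE, adjusted p = 0.000889), and Hdac5 and Mef2d changed by 0.46 and 0.36, the latter a call that was lost without either 6 h library. A further 11 members were reached by the untested measure, 7 above 0 and 4 below, with a median of 0.45 and Hdac9 at 2.62 over 133 positions. Of 18 MAP kinase phosphatases and feedback regulators 3 were tested, with a median change of -0.03. Spred1 was called higher (0.45, adjusted p = 0.0201, limma), a call lost without either 6 h library. By the untested measure 9 of 11 further members were above 0 and 2 below, with a median of 0.44.

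Of 42 mRNA decay factors 17 were tested, of which 6 were called higher and 3 lower (35.3% and 17.6%, against 26.9% and 26.5% of all genes tested), with a median change of 0.25. Edc3, an enhancer of decapping, changed by 1.11, Pum2, which binds 3′ UTRs, by 0.82, Khsrp, which binds AU-rich elements, by 0.71, and Smg1, a kinase of nonsense-mediated decay, by 0.49. The 3 called lower were Ybx3 (-0.40), an mRNA-binding cold shock protein, Btg1 (-0.37), which binds the deadenylase complex, and Xrn2 (-0.30), a nuclear exonuclease. The median of this list was not firm, lying between 0.11 and 0.29 over the alternatives tried. Of the m5C enzymes, readers and oxidases, 4 of 17 were tested, and Alyref alone was called (0.27). By the untested measure Alyref had a change of 0.00 over 94 positions, so that its rise was seen over the positions shared by all 4 libraries and not over the wider set. Nsun2 had a change of -0.06 (adjusted p = 0.425, limma) and Ybx1 of -0.02.

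Of 312 zinc finger genes of the Zfp series 24 were tested, of which 11 were called higher and 4 lower (45.8% and 16.7%, against 26.9% and 26.5% of all genes tested). Their median change of 0.33 was 0.18 without 2 h replicate 2 and 0.16 with at least 20 positions per gene. Zfp68 and Zfp24 had the largest increases (1.73 and 1.30), and Zfp512 and Zfp326 the largest decreases (-1.29 and -1.21). A further 127 had a value by the untested measure, and 102 of these were above 0, 44 above 1 and 4 below -1. Of all 9316 genes with 5 or more positions by that measure, tested or not, 762 were above 1 and 568 below -1.

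Of 25 axon guidance genes tested 8 were called higher and 7 lower, shares of 32% and 28% that lie near the 26.9% and 26.5% of all genes tested. Epha5, an ephrin receptor, rose by 0.84, and Plxnc1 and Sema4g, a semaphorin receptor and a semaphorin, fell by 1.21 and 1.00, while the ephrin gene Efnb3 fell by 0.76. By the untested measure 16 further members were above 0 and 19 below (median -0.24). The median of those tested was 0.12, but it was 0.004 without 2 h replicate 2 and -0.004 without 6 h replicate 1. With at least 20 positions per gene it was -0.01. Of 14 glutamate and GABA receptor genes tested 4 were called higher and 2 lower (28.6% and 14.3%). Their median was 0.11, and it was 0.02 without 2 h replicate 2 and 0.17 without 2 h replicate 1. Of 18 further members reached by the untested measure 6 were above 0 and 12 below (median -0.32). The AMPA receptor gene Gria1 had 2693 and 2663 reads per position after 2 h, then 1529 and 1330 after 6 h (log2 change -0.91 ± 0.08 SE, adjusted p = 0.00146), whereas the NMDA receptor gene Grin2b rose by 0.58 and the GABA receptor gene Gabra2 by 0.91. The Grin2b call was lost without either 6 h library and the Gabra2 call without 6 h replicate 2. The voltage-gated potassium channel gene Kcnf1 rose by 0.60. Parp1 was the only 1 of 4 tested genes of DNA replication and repair that was called (-0.25), a call lost without either 6 h library. Of 38 further members reached by the untested measure 12 were above 0 and 26 below (median -0.43).

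Of 61 cytosolic ribosomal protein genes tested 49 were not called, 4 were called higher and 8 lower (6.56% and 13.1%, against 26.9% and 26.5% of all genes tested), with a median of -0.05 that became 0.02 without 2 h replicate 2. Among the members called, the largest changes were in Rpl7l1 (0.93), Rps27l (0.53), Rpl35a (0.53) and Rpl41 (-0.45), and Rpl3, at -0.46, was not called. Of 5 astrocyte markers tested 3 were called lower and none higher (of all genes tested 26.5% were called lower and 26.9% higher, shares that also apply to the marker counts that follow), with a summed scaled coverage of 9085 and 8955 at 2 h and 7315 and 6898 at 6 h. Aldoc fell by 0.52, and Aldh1l1 and Slc1a3 by 0.22 and 0.22, calls that were lost without either 6 h library. Of the oligodendrocyte lineage markers, 2 of 3 tested were called higher (Olig1 0.77, Olig2 0.46; summed 2765 and 3098, then 4492 and 4315), the other was at -0.12, and Mog and Mag were not listed. Of 11 progenitor markers 3 were tested, of which Vim and Nes were called higher (0.64 and 0.44; summed 5562 and 5323, then 8133 and 7932), and the other was at -0.36. The Nes call was lost without either 6 h library and with DESeq2, and the Olig2 call without 6 h replicate 1. A further 5 progenitor markers were reached by the untested measure, with 4 of them below 0 and a median of -0.19, and Sox2 was not listed. Among 10 neuron markers tested 3 were higher and 2 lower, with Gad1 and Snap25 at 0.78 and 0.41 and Slc17a7 at -0.38. The Slc17a7 call was lost without either 6 h library. The part of cell composition in the gene changes was not tested.

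The 3′ UTRs and promoters of transcripts that rose and of those that fell were set side by side. The pentamer ATTTA, the core of AU-rich elements, was in the longest annotated 3′ UTR of 81.6% of genes called higher, 64.6% of those called lower and 72.6% of all tested with an annotation. These UTRs had median lengths of 1975, 1214 and 1491 bases, and the median number of ATTTA per kilobase was 1.58, 0.842 and 1.26. The full CRE motif TGACGTCA, searched on both strands of the RefSeq promoter window, was in 4.57%, 4.5% and 4.73% of the promoters, and its shorter core TGACG, which the full motif contains, in 45.4%, 38.2% and 42%. Among genes changed by more than 2-fold, ATTTA was in 85% of those higher and 72.4% of those lower, and the full CRE motif in 6.82% of 88 and 1.67% of 60 promoters. These shares are descriptions without a test.

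The m5C levels were set beside these changes. The 2280 positions were 765 mitochondrial, 821 in tandem repeats, 297 clustered (another position within 20 nt on the same strand) and 397 isolated nuclear positions, 371 of which carried a single gene symbol (8 carried several and 18 none). Fisher's exact test, which the study's methods name, was applied here to reads summed over replicates and called 186 of the 2280 higher at 6 h (8.16%) and 166 lower (7.28%). Of the mitochondrial positions 143 were called higher and 11 lower, but the libraries of the 2 times were apart in only 39 and 0 of these (22.3% of all 2280 positions were apart). The 6 h replicates differed there by a median of 25.7 points, and the median change was 19.4 points in replicate 1 and -11.8 in replicate 2. At the isolated nuclear positions with 1 gene symbol both replicates had a negative median change, and these are followed below. A value given for 1 replicate sets the 6 h library against the 2 h library of the same number, which is a convention, since same-numbered libraries were not found to be paired.

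A position entered through either time, and the choice itself favours a higher level at the time where it passed. Of the 371 isolated positions in 354 genes, 131 passed at 2 h only (121 of them lower at 6 h), 39 at 6 h only (7 lower) and 201, in 195 genes, at both times. The direction is read from these 201 alone. Their median level was 23.8% and 24.6% after 2 h, then 21.2% and 20.5% after 6 h, and the median change was -2.68 points (-1.57 in replicate 1 and -3.27 in replicate 2). Fisher's exact test called 62 of them lower (30.8%) and 14 higher (6.97%), against 7.28% and 8.16% of all 2280 positions. Of the 186 calls behind the 8.16%, 143 were mitochondrial, where the 2 replicates had opposite median changes.
Summed reads leave out the spread between cultures. With limma fitted over the 371 positions, a test that keeps that spread and was added after seeing the data, 22 of the 201 were called lower and 0 higher (44 and 8 at an unadjusted p under 0.05), and a quasi-binomial model called 48 and 7. With a replicate block limma called 9 lower and 0 higher. These fits and their adjustment ran over all 371 positions. They thus include the positions that passed at 1 time only, which can shift the threshold for the 201. Fitted over all 2280 positions, both models called 0 of the 201 (at an unadjusted p under 0.05, 25 lower and 1 higher with limma and 34 and 4 with the quasi-binomial model). Over the whole set of 371, whose counts hold the positions that passed at 1 time only, Fisher's exact test called 130 lower and 24 higher, of which 68 and 10 were such positions, and the median change was -3.75 points.

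At the 201 positions the median change was -3.40 points at 18 in 5′ UTRs, -1.14 at 83 in coding sequence, -3.52 at 89 in 3′ UTRs and -0.80 at 8 in noncoding exons. The shares called lower were 11.1%, 28.9% and 40.4% in the first 3 of these segments, and none of the 8 was called lower. At the 46 positions followed by the 3 guanines the median change was -1.35 points (0.39 in replicate 1 and -2.04 in replicate 2) with 17.4% called lower, and at the 155 others it was -2.90 with 34.8% called lower. The differences between segments and contexts were not tested. All 201 positions were also listed in both 0 h libraries, where the median levels were 14.7% and 14.3%, below those of either later time, though positions were chosen on their 2 h and 6 h levels.

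**Figure D4:**
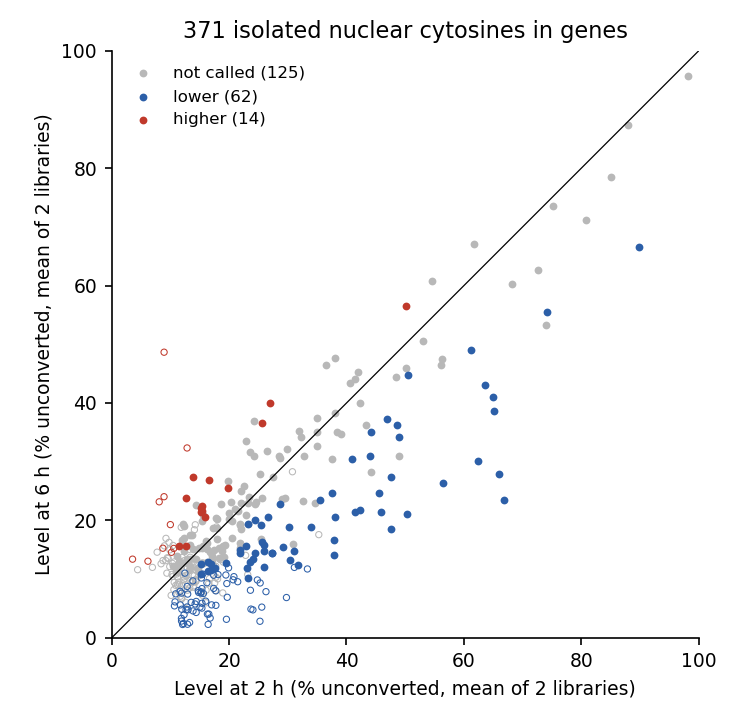
m5C level at 6 h against level at 2 h (percent of reads unconverted, mean of 2 libraries) for 371 isolated nuclear cytosines in genes. Filled points are the 201 that passed at both times (62 called lower by Fisher's exact test in blue, 14 called higher in red, the rest grey), open points those that passed at 1 time only, and the line marks equal levels; 127 of the filled points lie under it.

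The largest decreases, at the cytosines shown first above, were at positions with mean 2 h levels from 47.5% to 66.8%. The cytosine in the 3′ UTR of Gprin2, which acts in neurite outgrowth, had levels of 68.4% and 65.2% after 2 h, then 23.5% and 23.5% after 6 h (57 to 85 reads, adjusted p = 1.66e-11, Fisher's exact test). That in the 3′ UTR of Rptor, the scaffold of mTORC1, had 65.7% and 66.3% after 2 h, then 26.4% and 29.6% after 6 h. That in the coding sequence of Trim2, a neuronal ubiquitin ligase, had 60.6% and 64.1% after 2 h, then 32% and 28.1% after 6 h with 312 to 651 reads.
The Casc3 cytosine, in the 3′ UTR of an exon junction complex gene, had 51.4% and 49.2% after 2 h, then 21.4% and 20.6% after 6 h. The Nelfb cytosine, in the coding sequence of a subunit of the negative elongation factor, had 41.5% and 53.6% after 2 h, then 14.3% and 22.7% after 6 h. The Zbtb4 cytosine had 48.1% and 64.9% after 2 h, then 25.9% and 26.9% after 6 h, from 26 to 37 reads.
At 0 h the levels were 18.9% and 17.7% in Gprin2, 37.2% and 25.2% in Rptor, 18.8% and 21% in Trim2, 24.7% and 9.92% in Casc3 and 15% and 23% in Nelfb, all below both 2 h libraries. In Zbtb4 they were 49.1% and 43.2%, which overlapped with the 2 h libraries. All 6 passed at both times, and they were chosen for a large decrease from the 2 h level.

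Of the 6 largest increases 4 had passed at 6 h only, so that the choice of positions favoured their direction, and their levels are given as a description. The cytosine in the 5′ UTR of Mad2l2, a subunit of DNA polymerase ζ, had 9.52% and 8.33% after 2 h, then 51.9% and 45.5% after 6 h with 22 to 42 reads. That of Ipo11, an importin, had 15.1% and 10.6% after 2 h, then 28.6% and 36.1% after 6 h. The cytosines of C1qtnf12 and Adam12 had changes of 15.1 and 15.1 points.
The other 2 had passed at both times. The 5730409E04Rik cytosine had 15.7% and 12.2% after 2 h, then 24.4% and 30.2% after 6 h. That of the noncoding exon of 1500035N22Rik, with 244 to 286 reads, had 31.5% and 22.6% after 2 h, then 41.4% and 38.7% after 6 h. Both were called by Fisher's exact test (adjusted p = 0.0484 and 0.000201) but not with limma over the isolated positions (adjusted p = 0.0554 and 0.127), and the quasi-binomial model called the latter alone (adjusted p = 0.124 and 0.00768).

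In the genes examined singly, the Sik3 cytosine had levels of 16.6% and 14.2% after 2 h, then 22.2% and 22.5% after 6 h, called higher by Fisher's exact test (adjusted p = 0.00556) and by the quasi-binomial model over the isolated positions (adjusted p = 0.0417) but not with limma over them (adjusted p = 0.15). The Zfp553 cytosine, which passed at 2 h only, had 27.2% and 35.1% after 2 h, then 16.3% and 7.74% after 6 h. That of Rhbdd2 had 13.6% and 11.6% after 2 h, then 33.3% and 14.3% after 6 h, where 1 of the 6 h libraries lay near the 2 h values. It was called higher by Fisher's exact test (adjusted p = 0.0351) but not over the isolated positions with limma (adjusted p = 0.229) or the quasi-binomial model (adjusted p = 0.106). Both Homer1 cytosines, in the 5′ UTR, were not called (changes of 2.5 and -2.45 points). A Fam122a cytosine in the coding sequence, which passed at 2 h only, carried a second gene symbol and is not among the 371; it had 12.7% and 13.3% after 2 h, then 3.92% and 4.35% after 6 h. No isolated position of Zbed3 met the rule.
Among members of the gene lists in genes called for coverage, the Smg1 cytosine, which passed at both times, had a mean level of 24.5% after 2 h and 14.5% after 6 h and was called lower by Fisher's exact test, while limma over the isolated positions gave its level change an adjusted p of 0.0697 and the quasi-binomial model of 0.000191. The coverage of Smg1 rose (adjusted p = 0.0154, limma). A Grin2b cytosine in the coding sequence had 21.5% and 21.7%. Cytosines of Nefm (12.9% and 7.45%), Ybx3 (20.8% and 10.4%) and the 3′ UTR of Grin2b (24.1% and 4.76%) passed at 2 h only, and Grin1, at 43.3% and 36.2%, was not called.

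The level changes were then set beside the coverage changes of the genes, over positions that passed at both times. At 40 positions in genes called higher in coverage the median level change was -8.14 points (-4.94 and -9.78 in the 2 replicates), and at 57 positions in genes not called it was -2.47 (-1.27 and -3.13). At 41 positions in genes called lower it was 1.25, with opposite signs in the replicates (above 0 in replicate 1 and -0.19 in replicate 2). At the 63 positions in genes with too few positions for the coverage test it was -3.79. Of the 40 positions 20 were called lower and 1 higher, of the 57 positions 17 and 0, and of the 41 positions 4 and 9, against 29.7% lower and 7.25% higher over all 138 positions in tested genes.
In the first 3 classes the scaled number of unconverted reads changed by medians of 0.08, -0.19 and -0.33 on the log2 scale and that of converted reads by 0.90, 0.05 and -0.42. Most reads at these cytosines were converted, so the change of converted reads follows largely from how the classes were made. The classes were not compared by a test, since cytosines of 1 library are not replicates.

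Across the 138 such positions in 132 tested genes, coverage change and level change had a Pearson's r of -0.351 and a Spearman's rho of -0.449. Between libraries of the same number r was -0.232 and -0.408, and with the coverage change of 1 number set against the level change of the other, which share no library, it was -0.347 and -0.259. Over all 234 isolated positions in tested genes r was -0.377 and rho -0.468. The points are cytosines, not samples, and both measures come from the same libraries. Within a library they share reads, since coverage is the denominator of the level.

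**Figure D5:**
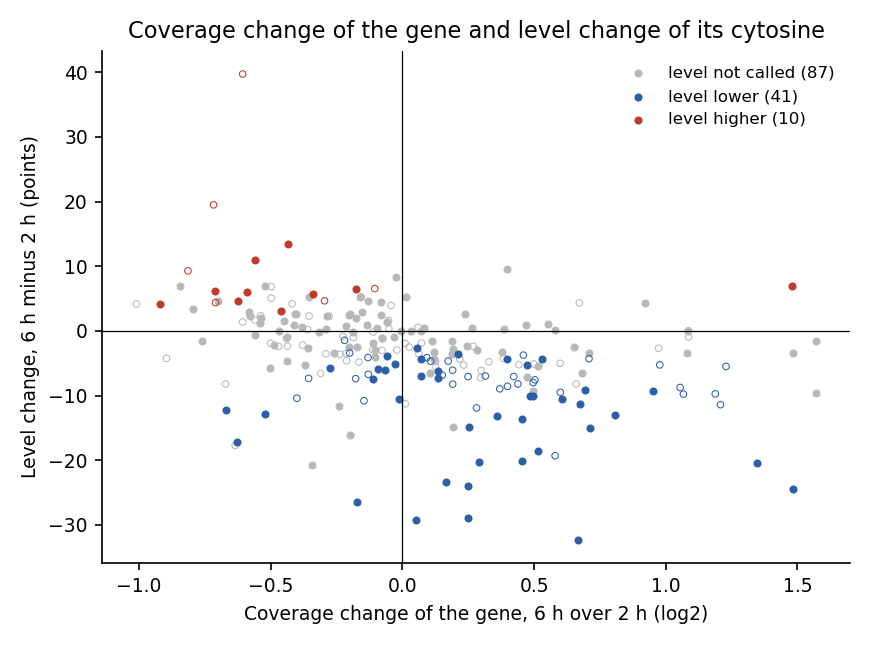
Level change from 2 to 6 h (points, 6 h minus 2 h) of 234 isolated nuclear cytosines against the coverage change (log2) of their genes. Filled points are the 138 that passed at both times, coloured by the level call of Fisher's exact test (41 lower, 10 higher), and open points those that passed at 1 time only; 1 of the filled red points, the Sik3 cytosine, lies in a gene whose coverage rose.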

How the data were processed

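RNA BS-seq was read from 2 biological replicates each of KCl 2 h and KCl 6 h. Per the labels, the deposited lists use mm10, and R 4.1.1 is named in the submitters' processing notes. The authors trimmed reads with Trim Galore, aligned them with meRanRh and called cytosines with meRanCall of meRanTK. The deposited count columns give coverage, unconverted and mismatched reads, and the deposited fraction is the methylation rate. Only cytosines with at least 10 reads and 1 unconverted read are listed, so coverage stands for abundance at listed positions alone. SE values are limma's and come from the spread between libraries. Coverage was scaled per library by the median over genes of the log2 ratio of gene coverage to its geometric mean over the 4 libraries. Gene changes were tested with limma 3.58.1 (R 4.3.3, trend), and levels with Fisher's exact test on summed reads, each with Benjamini-Hochberg adjustment at 0.05. edgeR 4.0.16 and DESeq2 1.42.0 on median coverage were alternatives. On simulated data the gene test and Fisher's exact test recovered changes. The reads simulated for Fisher's exact test had no spread between replicates, so they cannot show what leaving that spread out does to its calls. With an assumed spread between replicates, limma and the quasi-binomial model on positions recovered large level changes but none of 10 points. Low counts from these 2 models thus do not show that levels did not change, and the 2 simulations cannot be compared. Segments came from GENCODE M21, as the files annotate none. Genes named are the 10 largest increases and decreases among genes called with over 2-fold change, 10 or more positions and no overlap of libraries, up to 4 called members of each list, and genes the study examined singly, with some further members named after seeing their values. Positions named are the 6 largest changes each way among isolated nuclear positions in genes. They were taken from those called by Fisher's exact test with no overlap of libraries between times. Members and lists were chosen with earlier results of these data known. Some genes that meet these rules are not reported here.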

Additional observations from a re-analysis of the deposited data

How the results depend on the processing

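Total coverage or TMM scaling, coverage minimums, summed coverage, edgeR and DESeq2 each left the number of gene calls within 1.5 times, and no named gene changed direction under any alternative. With at least 20 positions per gene the calls numbered 608 higher and 611 lower (57 and 23 by over 2-fold), from fewer genes tested, and with levels under 0.01 only 51 were lower by over 2-fold. Leaving out 1 library at a time gave 605 to 1365 genes higher, 571 to 1311 lower and 92 to 180 higher by over 2-fold. A library left alone at its time was assumed to vary like the other time. Of 65 named genes 48 kept their side of the threshold throughout, and 14 lost the call without 6 h replicate 1 and 14 without 6 h replicate 2. Among those lost without either were Spred1, Mef2d, Smg1, Alyref, Grin2b, Parp1, Slc17a7, Aldh1l1, Slc1a3 and Nes, while Khsrp and Olig2 were lost only without replicate 1 and Gabra2 and Rpl41 only without replicate 2. DESeq2 lost 4 (Mef2d, Alyref, Aldh1l1 and Nes), edgeR 1 (Mef2d), the replicate block 2 (Aldh1l1 and Slc1a3) and the crossed pairing 1 (Slc1a3). The median of the effector list was 0.58 with at least 20 positions, that of the MAP kinase phosphatases -0.19 (1 gene) and that of the m5C list -0.0053. The decay factor median was 0.14 with at least 20 positions, 0.11 with low levels, 0.18 with edgeR, 0.17 with DESeq2 and 0.15 to 0.29 over left-out libraries. The axon guidance median was -0.0134 with at least 20 positions, -0.0281 with low levels and -0.00368 to 0.15 over left-out libraries. The m5C list ranged from -0.0441 to 0.15 and the DNA repair list from -0.175 to -0.0672 over left-out libraries. The causes were not tested.

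Same-numbered libraries deviated with r = -0.213 in coverage, -0.0350 in level at isolated and 0.212 at mitochondrial positions, so libraries of 1 number were not taken as pairs. The replicate block gave 1019 genes higher and 942 lower, and the crossed pairing 1062 and 1051. For positions the replicate block gave 277 higher and 167 lower in all and 25 and 129 among isolated positions in genes, and the crossed numbers 112 and 147 in all and 18 and 115. limma with the replicate block over isolated positions called 2 higher and 31 lower.

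Over all positions, a level minimum of 0.2 gave 90 higher and 72 lower, and positions passing at both times gave 80 lower. limma and the quasi-binomial model gave 0 and 0 (unadjusted 37 higher and 96 lower for limma, 18 and 67 for the quasi-binomial model). Leaving out 1 library gave 27 (without 6 h replicate 1) to 430 (without 6 h replicate 2) higher. Among isolated positions in genes, the level minimum of 0.2 gave 11 higher and 61 lower with a median change of -7.06, positions passing at both times, adjusted over such positions alone, 12 and 59 with -2.68, limma and the quasi-binomial model over all positions 0 and 0, the same models over isolated positions 3 and 52 and 10 and 96, and left-out libraries 13 to 20 higher. The median change stayed below 0 under every alternative. The mitochondrial median change of 3.08 points was -9.10 without 6 h replicate 1 and 16.8 without 6 h replicate 2. The correlation of coverage change and level change over 234 positions lay between -0.468 and -0.305 over the alternatives tried, was -0.351 over positions passing at both times (chosen after seeing the data), and was -0.275 and -0.396 between libraries of the same number.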

Other observations

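In 1448 genes with at least 5 shared positions in both the coding sequence and the 3′ UTR, the coverage change of the 3′ UTR minus that of the coding sequence had a median of 0.00 and quartiles of -0.10 and 0.09 on the log2 scale. A total of 2 genes, chosen after their values were seen, differed by more than 1 in the same direction in both replicates. In Rnmt, the cap guanine-7 methyltransferase, 6 positions in the 3′ UTR changed by -1.46 and 10 in the coding sequence by -0.10. In Ivns1abp, an influenza NS1-binding protein gene, 17 positions in the 3′ UTR changed by 1.18 and 206 in the coding sequence by 0.09.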
